A study of Mus musculus with 5 samples.

Results

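The genes described here encode the extracellular matrix and mark the fibroblasts that make much of it. They were chosen by symbol, from a list of 37 genes, and 36 of them had a probe set with a single gene symbol on the array, among 19938 genes in all. Each of the 36 had a single probe set. They fall into 24 fibroblast genes, 10 basement membrane genes and 2 genes for the enzymes that polymerise heparan sulfate. The fibrillin gene Fbn1 was on the list and is not analysed here.

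Extracellular matrix comes in several forms. Fibroblasts secrete interstitial matrix, in which fibrillar collagens form cables and proteoglycans, fibronectin and matricellular proteins fill and organise the space between them. A basement membrane is a thin sheet under epithelia, built from laminin, collagen IV, nidogen and perlecan, and cells of the early embryo and ES cells in culture make it themselves. Fibroblasts also serve as feeder layers for ES cells, so their transcripts can reach an ES cell RNA sample.

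The samples were 5 microarrays of biotin-labelled total RNA from mouse embryonic stem (ES) cells, grown with LIF and serum, whose titles give a tetO-Satb1 construct in every sample, controls included. The SATB1 protein organises chromatin by holding AT-rich stretches of DNA. The uninduced group (2 arrays, labelled control) received no DOX, and the induced group (3 arrays, labelled Satb1 overexpression) received doxycycline (DOX) for 24 h. RNA was made 48 h after passaging in both. The labels give no strain, no clone and no activator for the tetO promoter, and no DOX-treated cells without the construct were among the samples. They also disagree on feeders: the treatment protocol has cells on irradiated feeders, which settling before RNA preparation was meant to reduce, while the series text mentions LIF alone. The series title speaks of wild-type cells, but no sample title does. No label says whether cultures were separate within a group, so p-values measure only how far these arrays differ, and that spread may be technical.

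Values are the authors' log2 signals, summarised by RMA. Satb1, the induced gene, had signals of 4.95 and 5.34 without DOX and of 8.61, 8.79 and 8.68 with it, as the labels say. Pearson's r between arrays, across genes, which are not independent replicates, ran from 0.9972 to 0.9979. Markers of ES cells were high: the 14 measured genes, such as Pou5f1 and Sox2, had mean signals from 6.28 to 11.2, all above the median gene of the table, at 5.06. The file holds no detection call, and probe sets respond differently to the same amount of RNA. A signal therefore does not rank transcripts, and it cannot show whether a fibroblast gene was expressed at all. In these bulk samples, fewer cells of a type and less RNA per cell cannot be told apart.

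None of the 36 matrix and fibroblast genes passed the test between induced and uninduced cells (limma with Benjamini-Hochberg adjustment over all 19938 genes, adjusted p of 0.390 for Ext1 and from 0.770 to 1 for the other genes). Over all genes 3 passed, which is 0.015%, with 0.01% higher and 0.00502% lower. The test also missed Satb1 itself, 11.7-fold higher in induced cells (limma adjusted p = 0.229), so a call that is missing here says little. With the wider spread described below Satb1 passed (limma adjusted p = 0.0038), as the only gene, which is 0.00502% of all genes higher and 0 lower, and 0 members did. Before adjustment, at p under 0.05, there were 0 higher members, beside 0.481% of all genes, and 1 lower member, Ext1, beside 1.07%. The mean was higher in induced cells in 20 members, lower in 13 and the same in 3, and the median log2 change was 0.0033, where the median of all genes was 0. Every induced array lay above both uninduced arrays in 0 members, beside 1.65% of all genes. Every induced array lay below both in 2 members, Lama1 and Ext1, beside 3.08% of all genes.

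Differences were small, as they were in most genes of the array. Of the 36 members, 34 differed by less than 1.1-fold between groups, and the exceptions were Acta2 and Tagln. The log2 change was over 0.1 in size in 4 members (11.1%), beside 14.2% of all genes. Small changes are therefore not particular to the members. Exact ties between arrays make the spread of many genes too small, so intervals were taken from a fit that uses the spread of the 1800 genes with 5 distinct values. All 36 of these 95% intervals held 0. Their half-width ran from 0.135, which is 1.098-fold, to 0.302, which is 1.23-fold. The narrowest belong to genes with a single value on all 5 arrays. These intervals are not adjusted over genes and set no limit of detection for the adjusted test.

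**Figure D1:**
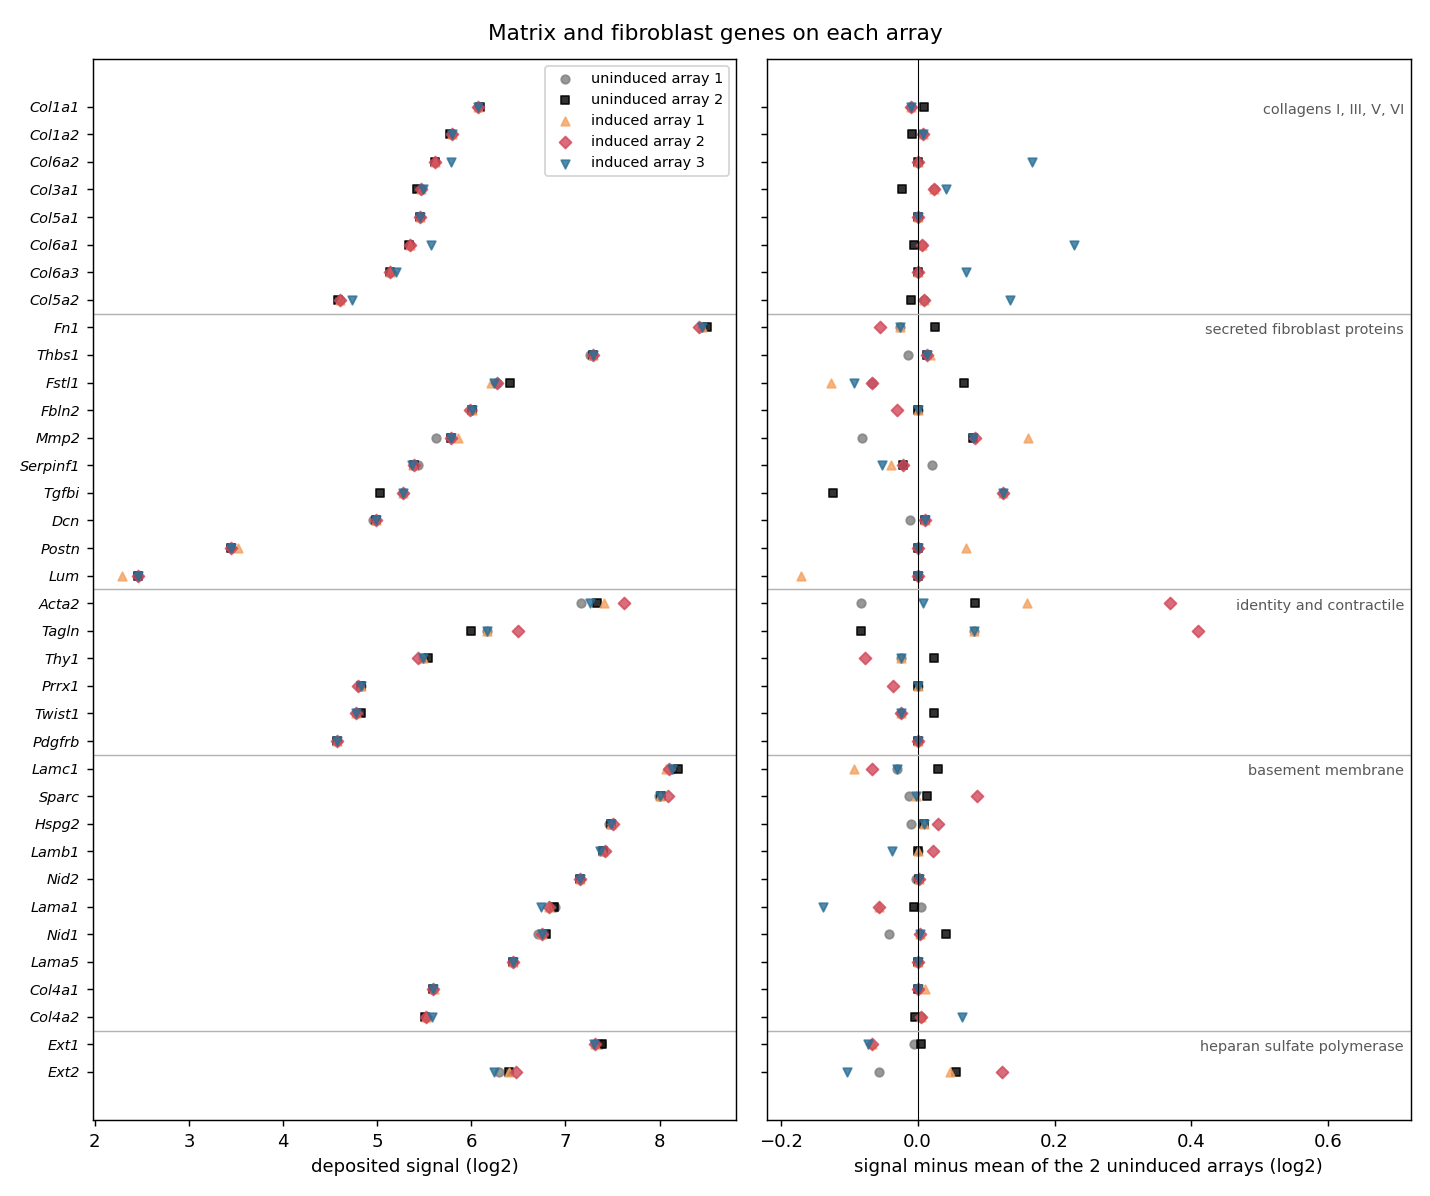
Deposited log2 signal of the 36 matrix and fibroblast genes on each of the 5 arrays (left) and the same signal minus the mean of the 2 uninduced arrays (right). Points are arrays and lines separate the gene groups. Most points lie within 0.1 of 0 on the right, with induced array 2 apart in Acta2 and Tagln and induced array 3 apart in Col6a1, Col6a2 and Col5a2.

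Promoter sequences are a feature of the matrix genes that the choice of members did not use, and they are described here with no test. RefSeq windows (build GRCm38.p6, 250 bases before to 50 after an annotated start, the most upstream start of a gene) matched 22 of the 36 measured members. The median GC content was 70.3% over 7 basement membrane genes, 57.0% over 14 fibroblast genes and 52.7% over all 27025 genes with a window. The letters GGGCGG, the core of the GC box, were found on either strand in 6 of the 7 basement membrane windows, in 7 of the 14 fibroblast windows and in 35.9% of all windows. The letters TATAAA were found in 0, 2 and 14.2% of the same windows, and CCAAT in 4, 4 and 38.0%. The windows of Col4a1 and Col4a2 are both among the 7 and share 78 bases, so the 7 are not wholly separate sequences. The strict CArG box, the binding motif of serum response factor, was in none of the 22 and in 1.59% of all windows. Tagln had no window, so its promoter was not searched. A match is a description of these letters. Motif matches do not overlap in the 3 sequences printed. They are the 250 bases before the start of a fibrillar collagen gene with low GC content and of 2 basement membrane genes with GC boxes, in lower case with the matches in capitals. Col3a1 is at chr1:45311288-45311537 on the plus strand, Lamb1 at chr12:31265043-31265292 and Hspg2 at chr4:137468553-137468802, both on the plus strand.
Col3a1: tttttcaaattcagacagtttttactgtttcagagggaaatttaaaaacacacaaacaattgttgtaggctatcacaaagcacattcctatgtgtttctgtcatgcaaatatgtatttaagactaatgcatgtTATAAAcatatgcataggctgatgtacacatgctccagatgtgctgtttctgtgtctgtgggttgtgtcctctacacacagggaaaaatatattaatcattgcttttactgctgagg
Lamb1: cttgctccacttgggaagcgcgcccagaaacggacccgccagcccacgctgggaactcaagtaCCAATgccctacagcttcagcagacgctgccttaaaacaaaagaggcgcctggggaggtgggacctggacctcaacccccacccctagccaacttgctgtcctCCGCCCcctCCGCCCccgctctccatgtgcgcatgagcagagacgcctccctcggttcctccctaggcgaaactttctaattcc
Hspg2: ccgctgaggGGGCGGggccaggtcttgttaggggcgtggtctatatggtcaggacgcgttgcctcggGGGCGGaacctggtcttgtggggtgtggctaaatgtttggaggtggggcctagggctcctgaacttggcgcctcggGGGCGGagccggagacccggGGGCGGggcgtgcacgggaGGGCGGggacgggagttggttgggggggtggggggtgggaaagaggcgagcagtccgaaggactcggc
The Col3a1 stretch was 35.2% GC with TATAAA beginning 117 bases before the start. Lamb1, at 62.0% GC, held a pair of GGGCGG matches on the opposite strand and CCAAT, and Hspg2, at 70.0% GC, held 5 GGGCGG matches.

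Of the 8 genes for collagens I, III, V and VI, 5 had their highest value on induced array 3 alone, and the collagen I genes and Col5a1 did not. Col1a1 and Col1a2 encode the chains of collagen I, the main fibrillar collagen, and Col3a1 encodes collagen III, which copolymerises with it. Col1a1 (probe set 10380419) was at 6.07 and 6.09 on the uninduced arrays and at 6.07 on each induced array. The same value, to the last digit, stood on every array except uninduced array 2. Col1a2 was at 5.79 and 5.78 and then at 5.79 on all 3 induced arrays, so that it too departed on uninduced array 2 alone, here downward. Col3a1 (probe set 10346015) was at 5.47 and 5.42 without DOX and at 5.47, 5.47 and 5.49 with DOX. Its groups overlapped, with a log2 change of 0.029 ± 0.018 (standard error; limma adjusted p = 0.770).

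Collagen VI forms beaded filaments around cells and is made of chains from Col6a1, Col6a2 and Col6a3. Col6a1 was at 5.34 and 5.33 in uninduced cells and at 5.34, 5.34 and 5.57 in induced cells. Col6a2 was at 5.62 on 4 arrays and at 5.78 on induced array 3. Col6a3 was at 5.13 on 4 arrays and at 5.20 on induced array 3. All 3 chains thus had their highest value on the same array, and the other induced arrays did not differ from uninduced array 1. Col5a2, a chain of collagen V, which regulates fibril diameter, was at 4.61 and 4.59 and then at 4.61, 4.61 and 4.73, while Col5a1 was at 5.45 on all 5 arrays.

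Of the 8 collagen genes above, 6 had a higher mean in induced cells, 1 a lower mean and 1 the same, with a median log2 change of 0.026. Without induced array 3 the median was 0.0029 and 4 were higher, 1 lower and 3 the same, so the 3 largest values, of Col6a1, Col6a2 and Col5a2, rested on that array. Uninduced array 2 alone was lowest in 4 of the 8 (50.0%), beside 11.9% of all genes. In 34 collagen chain genes outside the list it was so in 7 (20.6%). Without uninduced array 2 the median of the 8 was 0.015. Induced array 3 alone held the highest value in 5 of the 8, beside 12.0% of all genes. Collagen chain genes outside the list, gathered after this had been seen, gave 10 of 34 (29.4%) with induced array 3 alone highest. The count over all 44 collagen chain genes, 16 (36.4%), includes the genes of the list, in which this was first seen. None of the 44 passed the test and in none did the groups separate.

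Markers of primitive and parietal endoderm, cells of the early embryo that lay down basement membrane, had their highest mean on induced array 3, by a small margin. Induced array 3 alone was highest in 7 of 18 measured markers (38.9%), beside 12.0% of all genes. It was so in 5 of 18 further basement membrane genes (27.8%) and 2 of 7 smooth muscle markers (28.6%). In the 10 basement membrane members and in 10 endothelial and blood genes it was so in 1 each. The mean of the 18 endoderm markers was 4.64 and 4.64 without DOX and 4.65, 4.61 and 4.69 with DOX. Their mean signals lay between 3.44 and 5.78, and 5 of 18 were above the median gene. The file gives no zero, so absence cannot be read from it. The part of such cells in the collagen values was not tested.

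**Figure D2:**
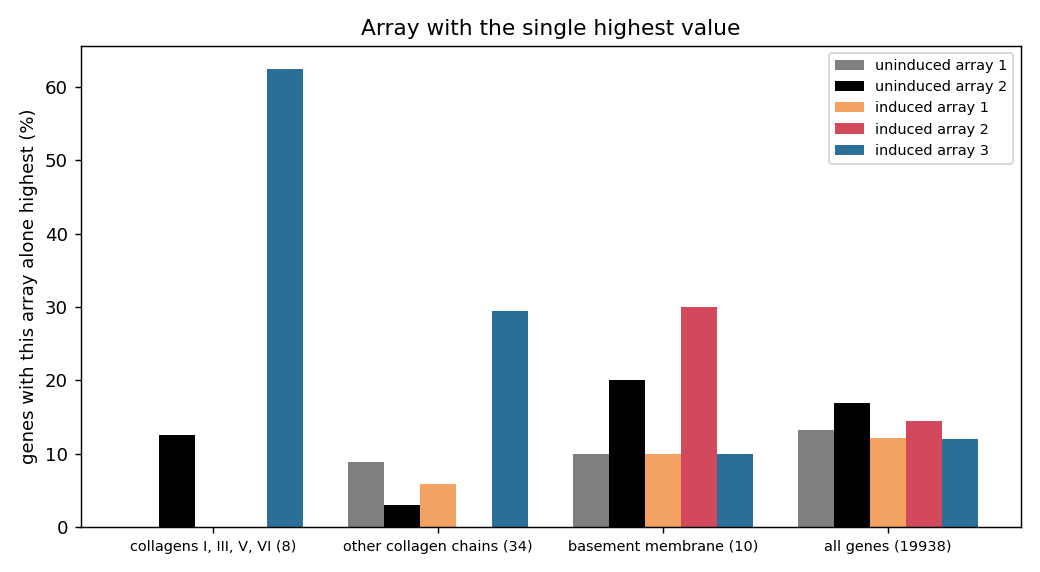
Share of genes, in percent, for which a single array held the highest value, for the 8 collagen genes of the list, 34 other collagen chain genes, 10 basement membrane genes and all 19938 genes. Bars are the 5 arrays, and genes with tied highest values count for none. Induced array 3 reached 62.5% of the 8 collagens and 29.4% of the others, beside 12.0% of all genes.

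Secreted proteins of fibroblasts gave no common direction. Of 10 measured genes, 5 had a higher and 5 a lower mean, with a median log2 change of 0.00060, and induced array 3 alone was highest in none of them. The largest change was in Tgfbi, which encodes a matrix protein induced by TGF-beta. Tgfbi (probe set 10405587) was at 5.28 and 5.03 on the uninduced arrays and at 5.28 on all 3 induced arrays. Its log2 change of 0.12 ± 0.086 (standard error) came from uninduced array 2 alone, and without that array the change was 0. In the fit without uninduced array 1, in which the lone control is assumed to vary like the induced arrays, Tgfbi passed at an adjusted p of 0.00020 and a change of 0.25.

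Mmp2, a gelatinase that cuts basement membrane collagen, was at 5.62 and 5.78 in uninduced cells and at 5.86, 5.78 and 5.78 in induced cells. The induced arrays reached down to uninduced array 2, and the log2 change was 0.11 ± 0.064 (standard error; limma adjusted p = 0.770). Without uninduced array 1, which was the low one, the change was 0.027, and without uninduced array 2 it was 0.19. Fstl1, a secreted glycoprotein gene of mesenchyme, was at 6.27 and 6.41 and then at 6.21, 6.27 and 6.25, a change of -0.096 in which an induced array tied with uninduced array 1.

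Fn1, the fibronectin gene, which ES cells can also express, was at 8.45 and 8.50 in uninduced cells and at 8.45, 8.42 and 8.45 in induced cells. Thbs1, the gene of the matricellular protein thrombospondin, ran from 7.27 to 7.30 over the arrays. The small leucine-rich proteoglycan genes Dcn and Lum are neighbours in the genome. A single array departed in each, as in 27.6% of all genes, but not the same array. Dcn was at 4.98 except on uninduced array 1, at 4.96, and Lum was at 2.46 except on induced array 1, at 2.29. Their log2 changes, 0.011 and -0.057, had opposite signs. Postn, the periostin gene, was at 3.45 except on induced array 1, at 3.52. Fbln2, a fibulin gene, was at 6.01 except on induced array 2, at 5.98, and Serpinf1, which encodes an anti-angiogenic factor, ran from 5.36 to 5.44.

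Genes of fibroblast identity were flat, and a pair of contractile genes was not. Acta2 and Tagln encode smooth muscle actin and its binding partner transgelin, which are high in smooth muscle and in activated fibroblasts and are targets of serum response factor. Acta2 (probe set 10467124) was at 7.17 and 7.34 without DOX and at 7.41, 7.62 and 7.26 with DOX. Induced array 2 was the highest, and induced array 3 lay below uninduced array 2, so the groups overlapped. The log2 change was 0.18 ± 0.14 (standard error), with an interval from the shared spread of -0.12 to 0.47.

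Tagln (probe set 10593123) was at 6.17 and 6.001 in uninduced cells and at 6.17, 6.49 and 6.17 in induced cells. Induced array 2 again stood apart, and the other induced arrays tied with uninduced array 1. The log2 change was 0.19 ± 0.14 (standard error), with an interval of -0.11 to 0.49. With each array left out in turn, the change of Acta2 ran from 0.084 to 0.26 and that of Tagln from 0.083 to 0.27, the lowest value in both being without induced array 2. Induced array 2 alone was highest in 14.5% of all genes. It was so in 0 of 7 smooth muscle markers, among them Myh11, in 4 of 10 endothelial and blood genes and in 7 of 32 other fibroblast genes (21.9%). The mean of the smooth muscle markers ran from 4.91 to 4.94 over the arrays. The part of other cells in the Acta2 and Tagln values was not tested.

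Thy1, a surface glycoprotein used to tell feeder fibroblasts from ES cells, was at 5.49 and 5.53 in uninduced cells and at 5.49, 5.43 and 5.49 in induced cells. Its log2 change was -0.042 ± 0.027 (standard error). The mesenchymal transcription factor genes Twist1 and Prrx1 were each at a single value on 4 arrays, with Twist1 at 4.78 and at 4.82 on uninduced array 2, and Prrx1 at 4.83 and at 4.79 on induced array 2. Pdgfrb, a growth factor receptor gene of mesenchyme, was at 4.57 on all 5 arrays. Over the 24 fibroblast genes the mean signal was 5.49 and 5.49 without DOX and 5.50, 5.52 and 5.52 with DOX. The 24 genes had a median log2 change of 0.0095, with 13 higher, 9 lower and 2 the same. The higher mean on induced arrays 2 and 3 came from different genes, namely Acta2 and Tagln on array 2 and Col5a2 and the collagen VI genes on array 3.

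**Figure D3:**
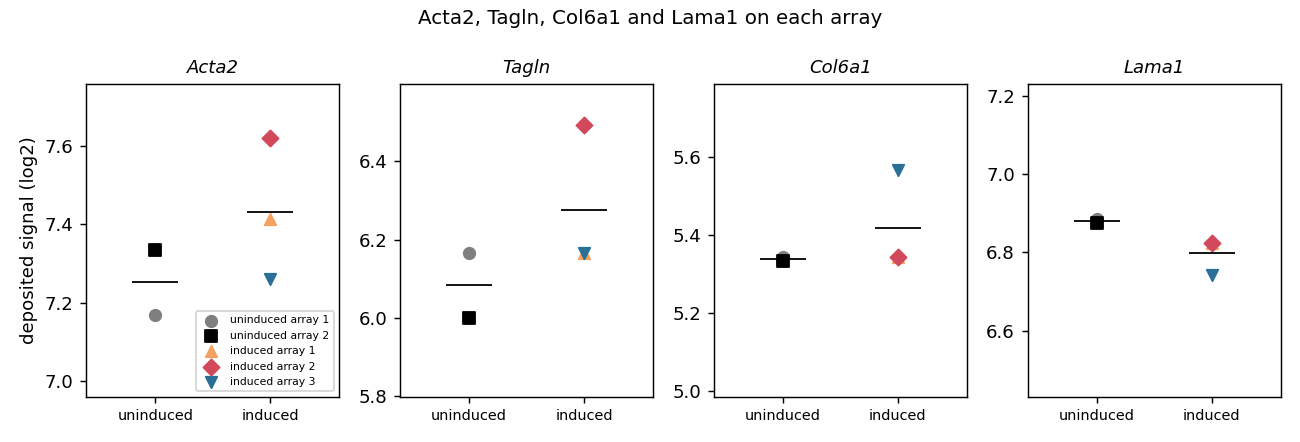
Deposited log2 signal of Acta2, Tagln, Col6a1 and Lama1 by group, with a point for each array and a line at the group mean; every panel spans the same range of 0.8 on the log2 scale. Induced array 2 is the high point of Acta2 and Tagln, induced array 3 that of Col6a1, and all 3 induced arrays lie below both uninduced arrays in Lama1.

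The 10 basement membrane genes had mean signals from 5.53 for Col4a2 to 8.13 for Lamc1 and differed between groups by 0.083 or less. Of the 10, 6 had a higher mean in induced cells, 3 a lower mean and 1 the same, with a median log2 change of 0.0025. Laminin-111, the first laminin of the embryo, is built from the chains of Lama1, Lamb1 and Lamc1, which assemble in equal number. Lama1 (probe set 10446473) was at 6.89 and 6.88 without DOX and at 6.82, 6.82 and 6.74 with DOX. Both uninduced arrays were higher than every induced array, and a pair of induced arrays was tied. The log2 change was -0.083 ± 0.033 (standard error; limma adjusted p = 0.770), with an interval from the shared spread of -0.23 to 0.065.

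Lamc1 was at 8.13 and 8.19 in uninduced cells and at 8.07, 8.10 and 8.13 in induced cells, where induced array 3 tied with uninduced array 1. Its log2 change was -0.063 ± 0.030 (standard error). Lamb1 was at 7.40 and 7.40 and then at 7.40, 7.42 and 7.36, a change of -0.0046. The chains did not share an order of arrays, since induced array 3 was the lowest in Lama1 and Lamb1 and the highest induced array in Lamc1. Lama5, which encodes the chain that follows Lama1 in many epithelia, was at 6.44 on all 5 arrays.

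Collagen IV, the network collagen of basement membranes, is made from Col4a1 and Col4a2, which are transcribed away from a shared promoter. In the RefSeq windows their most upstream starts were 21 bases apart on opposite strands. Transcripts from these starts overlap at their beginnings, so no stretch between the starts marks the shared promoter. The windows shared 78 bases at chr8:11312777-11312854, around the starts. Col4a1 was at 5.59 on 4 arrays and at 5.60 on induced array 1. Col4a2 was at 5.52 and 5.51 in uninduced cells and at 5.52, 5.52 and 5.58 in induced cells, and so joined the interstitial collagens in being highest on induced array 3. The log2 changes were 0.0037 and 0.024.

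Nidogens link laminin to collagen IV, and perlecan, from Hspg2, is the heparan sulfate proteoglycan of the sheet. Nid1 was at 6.71 and 6.79 in uninduced cells and at 6.75 on all 3 induced arrays, between the controls. Without uninduced array 1 its change was -0.038 and without uninduced array 2 it was 0.044, and both fits called it (adjusted p = 0.0011 and 0.00085), in opposite directions. Nid2 was at 7.16 on all arrays, with a range of 0.0042. Hspg2 ran from 7.47 to 7.50. Sparc, which encodes a collagen-binding matricellular protein abundant in parietal endoderm, was at 7.99 and 8.01 and then at 7.999, 8.09 and 7.999, with induced array 2 the highest and a change of 0.027.

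Heparan sulfate chains, which perlecan carries, are polymerised by a complex of the EXT1 and EXT2 glycosyltransferases. Ext1 (probe set 10428579) was at 7.37 and 7.38 without DOX and at 7.31, 7.31 and 7.31 with DOX. The groups did not overlap, and all values of a group lay within 0.011 of each other. The log2 change was -0.069 ± 0.0046 (standard error), which is 1.05-fold lower, and did not pass (limma adjusted p = 0.390). With the shared spread the interval was -0.20 to 0.067. Ext1 passed in the fits without uninduced array 1 or 2 (adjusted p = 0.011 and 0.015), which called 9.93% of all genes each. The first fit called 2 members higher, beside 4.43% of all genes, and 4 lower, beside 5.5%. The second called 3 higher, beside 5.27%, and 1 lower, beside 4.65%. Apart from Tgfbi, Nid1 and Ext1, the genes called were Col1a1, Col1a2 and Twist1 in the first fit and Dcn and Thbs1 in the second, all with changes under 0.05. Its partner Ext2 was at 6.29 and 6.40 in uninduced cells and at 6.40, 6.47 and 6.25 in induced cells, so the groups overlapped widely and the change was 0.022 ± 0.089 (standard error).

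Other genes of the matrix were counted from lists chosen with earlier results of these data known. None of these genes passed the test over all genes in either direction, nor with the wider spread from genes with 5 distinct values. Their standard errors are those of the main fit, in which ties make the spread of many genes too small. Counts of separate groups in these lists are to be read against the shares over all genes, 1.65% above and 3.08% below, and are given as descriptions. Of 33 other genes of heparan sulfate synthesis, its core proteins and its editing, 14 were higher, 13 lower and 6 the same, with a median of 0. The syndecan gene Sdc4, a cell surface heparan sulfate carrier, was at 6.78 and 6.65 and then at 7.07, 6.95 and 6.95. All induced arrays were higher, by 0.27 ± 0.069 (standard error; limma adjusted p = 0.770). The glypican gene Gpc3 went the other way, from 6.25 and 6.13 to 6.05, 5.92 and 5.91. Hs3st3a1, a sulfotransferase gene with a low signal, had the largest value of the list, at -0.34, with overlapping groups.

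Among 15 genes of collagen modification and processing, 6 were higher, 6 lower and 3 the same. P4ha1, the catalytic subunit of a collagen prolyl hydroxylase, had the largest change, at -0.48 ± 0.041 (standard error; limma adjusted p = 0.649), with 6.68 and 6.73 in uninduced and 6.17, 6.28 and 6.22 in induced cells. Plod2, a lysyl hydroxylase that prepares collagen for crosslinking, was at 7.32 and 7.28 and then at 7.19, 7.17 and 7.03. Pcolce, an enhancer of procollagen cleavage, had a change of -0.16 with groups that overlapped. P4hb, the partner subunit of P4ha1, was at 9.53 on 4 arrays and 9.52 on induced array 3.

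Of 32 fibroblast genes outside the list, 14 were higher, 13 lower and 5 the same, with a median of 0. Lox, which encodes lysyl oxidase, the crosslinker of collagen and elastin, was at 4.81 and 4.76 in uninduced cells and at 4.59 on all 3 induced arrays, a change of -0.20 ± 0.018 (standard error; limma adjusted p = 0.697). The induced values of Lox are an exact tie, which narrows its standard error. The groups separated in 1 of the 32, beside 3.08% of all genes below. Pcolce, at -0.16, and the Wnt modulator gene Sfrp2, at -0.13, came next. Of 18 further basement membrane genes 7 were higher, 6 lower and 5 the same, and Frem2, at -0.18, Lamc3, at 0.068, and Ntn4, at 0.057, had the largest values. Among the genes for other laminin alpha chains, Lama2 and Lama4 had the same value of 3.88 on all arrays, and Lama3 ran from 5.04 to 5.20. Over all genes 11.9% shared all 5 values with another gene.

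Receptors for the matrix gave 9 higher, 3 lower and 2 unchanged means among 14 genes. Uninduced array 1 alone was lowest in 6 of the 14 (42.9%), beside 13.7% of all genes, and without it 5 were higher, 4 lower and 5 the same. The integrin genes Itgb5, at -0.12, Itga1, at 0.11, and Itga3, at 0.10, had the largest values, and the groups separated in Itgb5 alone. Among 15 matrix proteases and inhibitors 4 were higher, 7 lower and 4 the same, led by Mmp10 at -0.18, Mmp11 at -0.16 and Mmp3 at -0.15, none with separate groups. Among 11 genes of TGF-beta signalling and response 4 were higher, 4 lower and 3 the same. Skil, a SMAD corepressor gene, was lower on all induced arrays, by 0.12 in size, Tgfb3 had a change of 0.12 and Smad7 of 0.11.

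Genes of endothelial and blood cells, which should be foreign to the culture, were measured beside the members. The 10 genes had mean signals from 3.23 to 7.72, the last being Cd68, a macrophage marker. None of the marker lists held a gene that passed. Among the 14 ES cell markers 3 were higher, 10 lower and 1 the same, and the groups separated in 2, the pluripotency factor gene Klf4, at -0.35, and Tdgf1, at -0.21, beside 3.08% of all genes below. The endoderm markers gave 8 higher, 6 lower and 4 the same, and Gata6, an endoderm transcription factor gene, was higher on every induced array, by 0.084, beside 1.65% of all genes above. Smooth muscle markers gave 4 higher, 2 lower and 1 the same. The mean of the 10 endothelial and blood genes was 4.48 and 4.48 without DOX and 4.48, 4.52 and 4.48 with DOX.

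Exact ties between arrays were found in 34 of the 36 members. Of the members, 3 (Col5a1, Pdgfrb and Lama5) had the same value on all 5 arrays, 13 had 2 distinct values, 11 had 3, 7 had 4 and 2 (Acta2 and Ext2) had 5. Over all genes the shares were 15.1%, 27.7%, 30.6%, 17.5% and 9.03%. In all 13 genes with 2 distinct values a single array departed from the other 4: uninduced array 2 in 4 of them, induced array 1 in 3, and uninduced array 1, induced array 2 and induced array 3 in 2 each. In these 13 genes a difference between groups is the departure of that array. The 3 induced arrays were tied in 10 members (27.8%), beside 28.9% of all genes, and the 2 uninduced arrays in 11 (30.6%), beside 43.0%.

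**Figure D4:**
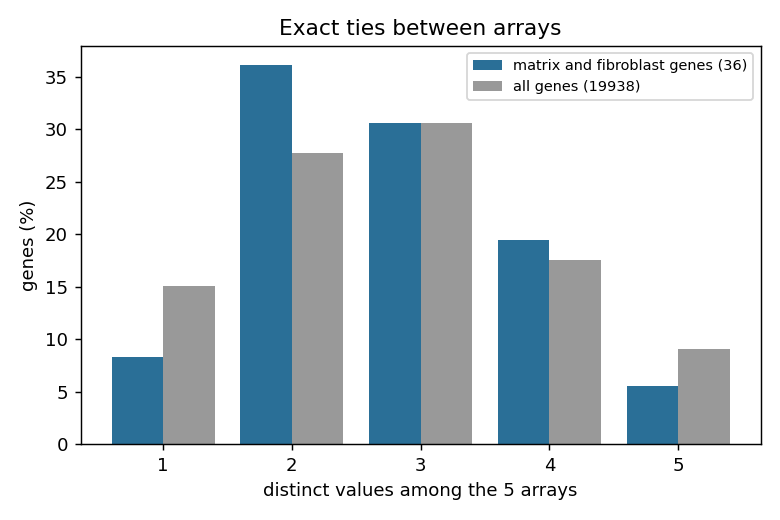
Share of genes, in percent, by the number of distinct values among the 5 arrays, for the 36 matrix and fibroblast genes (blue) and all 19938 genes (grey). A single value on all arrays was found for 8.33% of the members and 15.1% of all genes, and 5 distinct values for 5.56% and 9.03%.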

How the data were processed

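RNA of 5 samples was measured on microarrays. Per the submitters' processing notes, the authors summarised the deposited log2 values with RMA, which corrects background, normalizes arrays to a common distribution and summarises probes; its version, the probe grouping and the build are not given in the sources used. Because arrays share a distribution, a shift of all transcripts would not be seen, and the median-based summary can give exact ties.

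Of 35557 probe sets, 21789 had 1 gene symbol in the array's annotation, 1621 had several and 12147 were not listed. Genes with several probe sets were represented by that of highest mean, leaving 19938 genes and no filter on low values. Groups came from sample titles. Genes were tested with limma 3.58.1 (lmFit, eBayes) in R 4.3.3. The threshold was a Benjamini-Hochberg adjusted p of 0.05, over every gene. A second fit took limma's prior from the 1800 genes with 5 distinct values (prior SD 0.086 against 0.0050). Older symbols were matched through the RefSeq gene table of GRCm38.p6. The fit was tested on simulated data.

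The members and lists were chosen with earlier results of these data known. All members are named. Values on each array are given for the members with separate groups, the 4 largest changes among fibroblast and among basement membrane genes, and 7 genes fixed by name; up to 3 genes are named from each other list, further ones after their values were seen. Results were recomputed with the mean of a gene's probe sets, genes above the median level, centred arrays, repeated quantile normalization, eBayes with trend and robust, the second fit, untied genes only, the title number as a block, a threshold of 0.01, and each array left out.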

Additional observations from a re-analysis of the deposited data

How the results depend on the processing

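No member passed under any of the alternatives with all 5 arrays. With single arrays left out, the number of members past the threshold ran from 0 to 3 higher and from 0 to 4 lower, in fits with a lone uninduced array that called 9.93% of all genes. All genes gave 2 higher and 1 lower calls. With centred arrays, repeated quantile normalization, the replicate block or the brighter genes (those above the median level) alone, both were 0; the spread from genes with 5 distinct values gave 1 higher and 0 lower, untied genes 1 higher, and a threshold of 0.01 left 0 higher. With single arrays left out they ran from 0 to 1051 higher and from 0 to 1097 lower.

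Members with separate groups, 0 higher and 2 lower, became 4 of 36 higher with centred arrays, beside 3.35% of all genes, 10 higher and 4 lower with repeated quantile normalization, beside 10.9% and 8.35%, and 0 lower among untied genes, where Lama1 and Ext1 were not tested. They ran from 0 to 8 higher and from 2 to 9 lower with single arrays left out, where all genes gave up to 14.5% higher and 18.2% lower. The fibroblast median of 0.0095 was 0.036 among untied genes, which left only Fstl1, Serpinf1, Mmp2 and Acta2. The basement membrane median of 0.0025 was 0.017 with repeated quantile normalization. Among untied genes it was -0.063, which is the change of Lamc1, the only basement membrane gene left. In the other settings it stayed within 0.010, the SD between arrays, of the main value. Of the 14 members chosen by the naming rule, 9 kept their sign in all settings; Col1a1, Ext2 and Sparc changed sign, and Tgfbi and Col4a1 were at 0 in a setting that left out an array. Deviations from the group mean, taken over genes, correlated at -0.0063 and 0.0063 between same-numbered arrays. The deviations of the 2 uninduced arrays mirror each other, so these are not separate pieces of evidence. The title numbers were not shown to pair the arrays. The cause of these changes was otherwise not tested. The number of arrays limits precision. The main fit missed Satb1 at 11.7-fold (limma adjusted p = 0.229). On the same arrays the second fit, whose prior SD was larger, called Satb1 (limma adjusted p = 0.0038). The miss therefore depended on the prior, and the part of the number of arrays in it was not tested.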
